A study of Homo sapiens with 18 samples.

Results

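The insulin-like growth factor (IGF) binding protein genes IGFBP1 to IGFBP6, the ligand gene IGF2, the receptor gene IGF1R and the adaptor genes IRS1 and IRS2 were chosen by name from the 23106 genes counted, giving 10 genes in all. PolyA+ RNA was sequenced from 3 established human cell lines, each grown under normoxia and hypoxia in 3 replicates, which gives 18 samples. HKC-8 is a renal proximal tubule line, RCC4+VHL is a clear cell renal carcinoma line that lacks a working VHL tumour suppressor of its own and, by the labels, stably carries a wild-type copy, and HepG2 is a hepatocellular carcinoma line. The normoxic samples were kept at 21% oxygen where the titles give a level. The labels give 0.5% oxygen for 16 h for hypoxic HKC-8 and HepG2 cells, although the titles of the HKC-8 samples say 0.1%, and 1.0% for 24 h for hypoxic RCC4+VHL cells, where the paper describes the shorter and deeper exposure for every line. The paper also names the carcinoma line RCC4 without VHL. Whether these cells carried the VHL copy was not tested, and they are called RCC4+VHL here after the labels. The lines are therefore tested apart, and responses are set against each other in a test only for HKC-8 and HepG2 cells.

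IGF1 and IGF2 are secreted growth factors that act mainly through the receptor tyrosine kinase IGF1R. The IGF binding proteins hold them in the extracellular space, in most settings keeping them from the receptor and lengthening their life, and several also have actions of their own. Inside the cell IRS1 and IRS2 are phosphorylated by the activated receptors for insulin and IGF and pass the signal to PI 3-kinase and AKT. IGFBP1 is a secreted liver product that insulin lowers and fasting and hypoxia raise, and proximal tubule and liver cells both use insulin signalling to set glucose output.

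HKC-8 libraries held 75441764 to 97984260 counts, RCC4+VHL libraries 42045335 to 51794355 and HepG2 libraries 40915980 to 48355303. Replicates differed beyond counting noise, with a chi-square per degree of freedom of 32.9 to 91.5 in HKC-8, 4.57 to 7.3 in RCC4+VHL and 6.5 to 33 in HepG2 cells. A floor of 3 counts equalled 0.0306 to 0.0733 CPM (counts scaled to library size), which covers counting error only. Of 6 hepatocyte markers, all were present in HepG2 cells, with a summed level of 22206 to 28096 CPM, against at most 11.1 CPM in the kidney lines, where ALB, APOA1 and TTR were at or under 3 counts. Of 8 renal tubule markers, the sum was 156.1 to 199.6 CPM in HKC-8 and 481.2 to 587.5 CPM in RCC4+VHL cells, but LRP2, a defining proximal tubule receptor, was at or under 3 counts in every HKC-8 library, as was CUBN in normoxic RCC4+VHL libraries. Leukocyte markers summed to at most 0.456 CPM and endothelial markers to at most 3.61 CPM, and the summed level of 9 hypoxia-induced markers was higher in every hypoxic than in every normoxic library of each line. The labels do not say that replicates came from separate cultures, so p-values measure the spread between these samples. In bulk RNA, fewer cells expressing a gene and less RNA per cell cannot be told apart.

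Hypoxia raised binding protein transcripts in every line, but different ones carried the rise. IGFBP1 and IGFBP4 led in HepG2 cells, whereas IGFBP3 led in both kidney lines. IGFBP3 was the only binding protein with a rise of more than 2-fold in all 3 lines. Of the 10 genes, 4 of 7 tested were induced and 0 repressed in HKC-8 cells (edgeR, adjusted p under 0.05), where 11.2% of all genes tested were induced and 9.12% repressed. Of the 6 tested in RCC4+VHL cells 3 were induced and 0 repressed, against 25.9% and 24.2% of all genes, and in HepG2 cells 7 of 8 were induced and 0 repressed, against 19.9% and 19.2%. With DESeq2, and in either tool at an unadjusted p under 0.05, the number repressed was also 0 in each line. The median log2 fold change of the members tested was 0.44 in HKC-8, 0.11 in RCC4+VHL and 1.01 in HepG2 cells, where the median over all genes tested lay between -0.0044 and 0.0036. All 10 genes were chosen with earlier results of these data known, so these counts and medians describe them and are no test of the set. The genes not tested had too few counts and are described below with their counts.

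**Figure D1:**
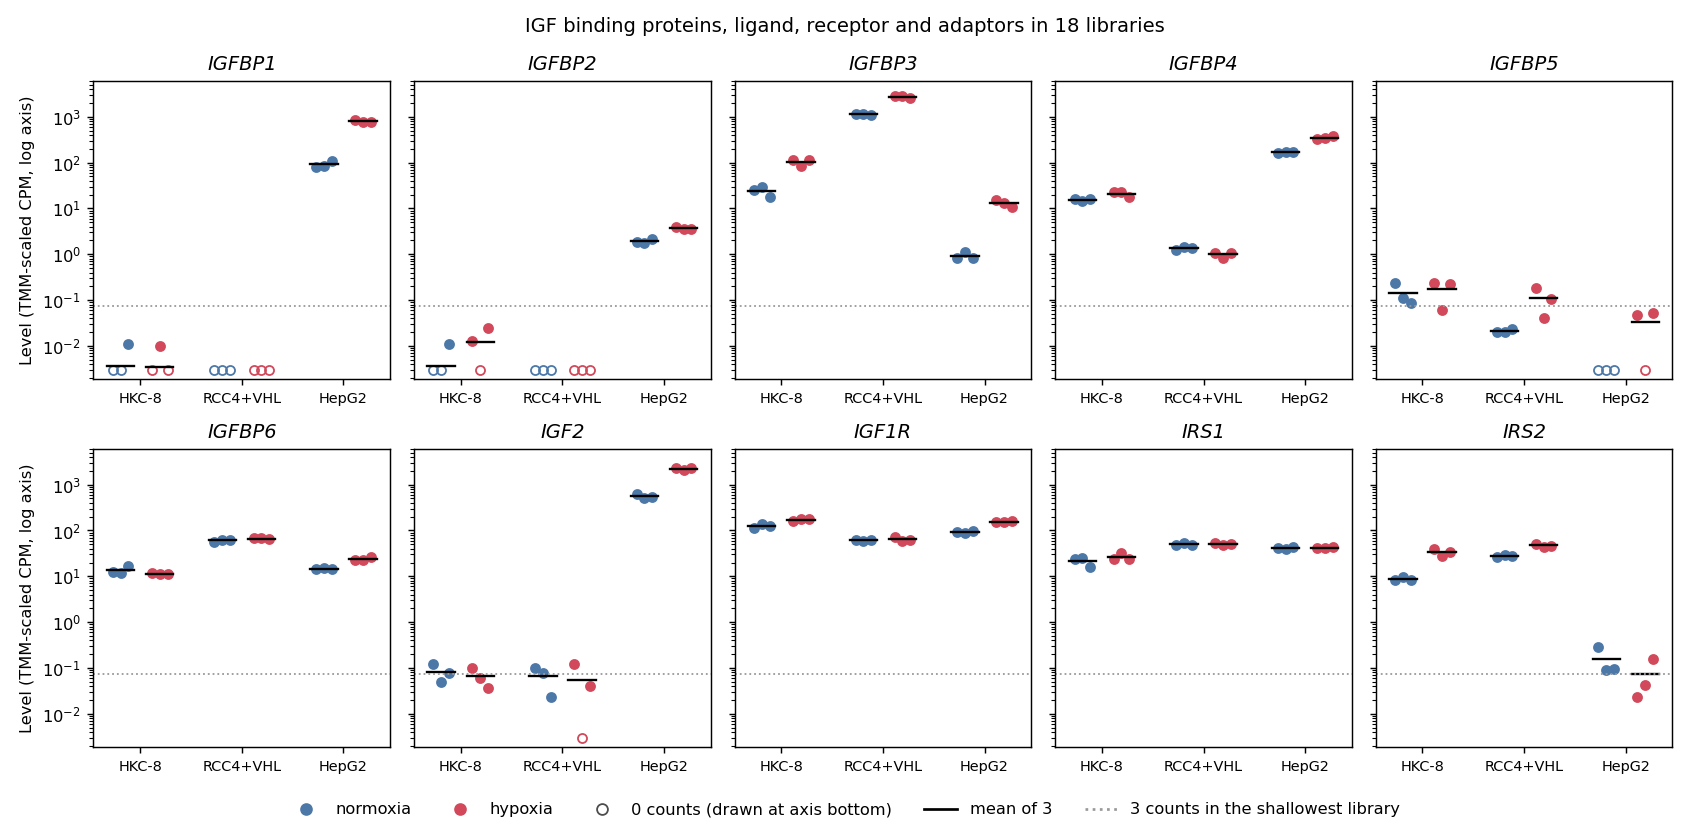
Level of each of the 10 genes in every library, in TMM-scaled CPM on a log axis, with normoxic libraries in blue, hypoxic libraries in red and the mean of 3 as a black line. IGFBP1, IGFBP2 and IGF2 stood above the floor (dotted line) by a wide margin in HepG2 cells only, IRS2 did so in the kidney lines only, and IGFBP3 rose in each line from very different starting levels.

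**Figure D2:**
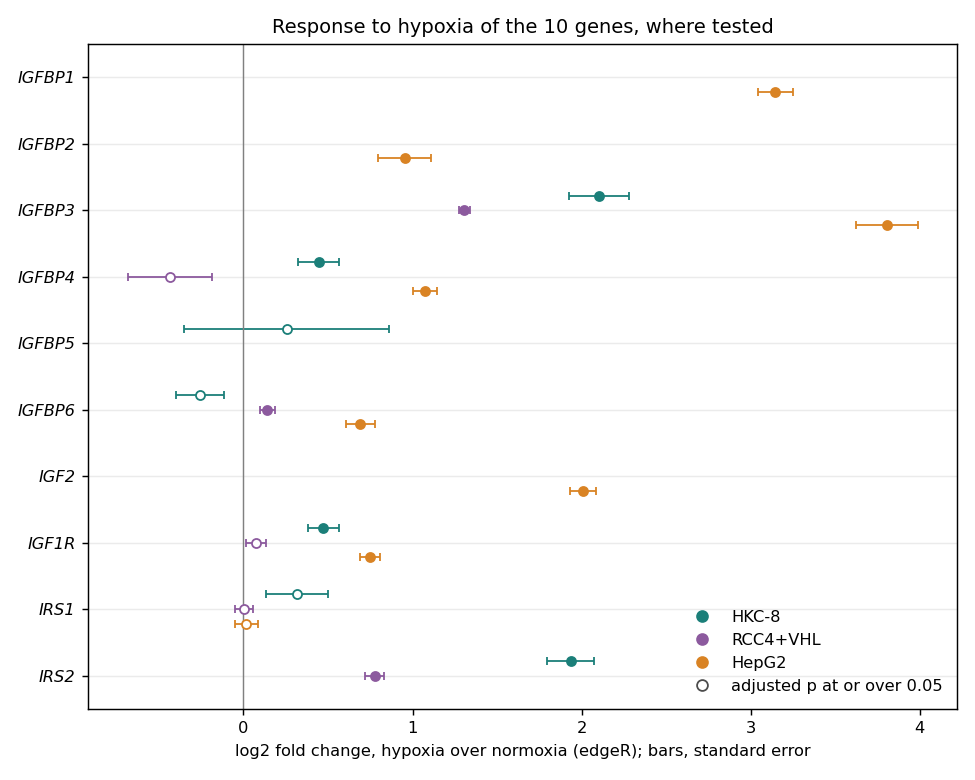
Log2 fold change of hypoxia over normoxia with its standard error (edgeR, 3 against 3 libraries) for each gene and line in which it was tested, with open circles for an adjusted p of 0.05 or more. The largest values were those of IGFBP3 and IGFBP1 in HepG2 cells, at 3.81 and 3.14, and those of IRS1 lay near 0 in RCC4+VHL and HepG2 cells.

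IGFBP1, the acutely regulated hepatic binding protein, was abundant in HepG2 cells and virtually silent in the kidney lines. Its level in HepG2 cells was 79.04, 85.92 and 107.3 CPM in normoxia and 868.5, 756.6 and 781.5 CPM in hypoxia. Every hypoxic library lay well above every normoxic one. The log2 fold change was 3.14 ± 0.10 (SE, n = 3), an 8.84-fold rise (edgeR, adjusted p = 5.79e-11). In HKC-8 cells there was 1 count in 1 normoxic and 1 hypoxic library and 0 in the other 4, and in RCC4+VHL cells there were 0 counts in all 6. Against the floor of 3 counts per library, the lowest normoxic HepG2 library was at least 1107.8-fold higher than normoxic RCC4+VHL libraries. No induction in kidney cells could be tested with so few counts.

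IGFBP3, the main carrier of circulating IGF and a known hypoxia-inducible gene, is the neighbour of IGFBP1. On GRCh37 IGFBP1 lies at chr7:45927959-45933259 on the plus strand and IGFBP3 at chr7:45951844-45961473 on the minus strand, tail to tail, with 18584 bases and 0 annotated genes between them. The pair did not share a pattern across lines. In HKC-8 cells IGFBP3 measured 24.81, 28.79 and 18.07 CPM in normoxia and 112, 83.57 and 111.5 CPM in hypoxia. RCC4+VHL cells held 1133.9, 1148.6 and 1075.1 CPM in normoxia and 2843.5, 2822.8 and 2607.2 CPM in hypoxia. In HepG2 cells it measured 0.8385, 1.119 and 0.8115 CPM and then 15.43, 12.85 and 10.6 CPM. The groups did not overlap in any line. RCC4+VHL cells had the highest level and the smallest fold, but their labelled exposure differs from that of the other lines. The folds are therefore set side by side without a test. The normoxic level is also the denominator of each fold, so level and fold are not independent. The rise was 4.3-fold in HKC-8 (log2 2.10 ± 0.18, edgeR adjusted p = 0.000132), 2.47-fold in RCC4+VHL (1.31 ± 0.03, adjusted p = 4.76e-19) and 14-fold in HepG2 cells (3.81 ± 0.18, adjusted p = 3.04e-09).

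The 250 bases before the annotated start of IGFBP3, of IRS2 and of IGF1R are shown because IGFBP3 and IRS2 rose in both kidney lines and because IGF1R held the most hypoxia response cores of the 8 genes matched, a choice made after the matches were seen. They come from RefSeq on GRCh38.p14, in which 8 of the 10 genes were matched and IGFBP1 and IGF2 were not. Capitals mark GCGTG or ACGTG, the core of the hypoxia response element, on either strand, and in IRS2 TGTTTTG, one of the pair of insulin response cores searched on either strand (the other was TATTTTG). The 3 sequences are written along the strand of the gene, at chr7:45921273-45921522 (minus), chr13:109786584-109786833 (minus) and chr15:98648289-98648538 (plus).
IGFBP3: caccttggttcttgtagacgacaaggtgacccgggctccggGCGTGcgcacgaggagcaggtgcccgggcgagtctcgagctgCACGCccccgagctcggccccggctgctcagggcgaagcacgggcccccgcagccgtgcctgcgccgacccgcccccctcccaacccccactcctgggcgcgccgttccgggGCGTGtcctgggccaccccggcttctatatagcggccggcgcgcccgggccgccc
IRS2: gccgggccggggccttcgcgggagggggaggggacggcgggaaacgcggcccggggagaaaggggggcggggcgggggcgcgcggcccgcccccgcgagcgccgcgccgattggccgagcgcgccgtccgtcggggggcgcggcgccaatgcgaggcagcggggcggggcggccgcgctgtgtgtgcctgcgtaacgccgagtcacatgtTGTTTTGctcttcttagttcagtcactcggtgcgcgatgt
IGF1R: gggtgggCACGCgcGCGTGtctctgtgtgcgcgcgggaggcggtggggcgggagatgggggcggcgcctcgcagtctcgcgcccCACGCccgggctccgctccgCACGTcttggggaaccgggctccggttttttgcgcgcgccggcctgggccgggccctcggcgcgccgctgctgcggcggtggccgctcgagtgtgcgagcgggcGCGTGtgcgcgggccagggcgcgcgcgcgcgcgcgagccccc

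IGFBP3 held 3 hypoxia response cores in this window, beginning 209, 167 and 55 bases before the start, and IGF1R held 5. IRS1 held 1 and so did 1 start of IGFBP2, whereas none was found for IRS2, IGFBP4, IGFBP5 or IGFBP6. Among 35116 promoters of the same length 43.2% held 1 or more such cores and 7.76% held 3 or more. The insulin response core of IRS2 began 40 bases before its start, and 7.89% of promoters held such a core. A match of so few letters describes the sequence and does not show that a factor binds there.

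IGFBP4, a binding protein expressed widely and generally inhibitory toward IGF, was the most abundant member of its family per length of transcript in normoxic HepG2 cells. There it measured 158.2, 166.7 and 173.9 CPM in normoxia and 329.7, 337.1 and 384 CPM in hypoxia, and the groups were well apart. The rise was 2.11-fold (log2 1.07 ± 0.07, edgeR adjusted p = 7.11e-08). In HKC-8 cells it measured 15.89, 14.28 and 16.09 CPM and then 22.68, 22.42 and 17.72 CPM, a rise of 1.36-fold (0.44 ± 0.12, edgeR adjusted p = 0.0333). That call was lost without hypoxic replicate 1 (log2 0.38) or 2 (0.39) or normoxic replicate 1 (0.46) or 2 (0.39), with edgeR adjusted p-values of 0.135, 0.0669, 0.101 and 0.112 (range over all alternatives 0.000769 to 0.135). In RCC4+VHL cells it was close to 1 CPM, at 1.245, 1.43 and 1.357 in normoxia and 1.072, 0.8408 and 1.056 in hypoxia, and the log2 difference of -0.44 ± 0.25 did not pass (edgeR adjusted p = 0.152).

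IGFBP6, which prefers IGF2 over IGF1, rose in HepG2 cells and barely moved in the kidney lines. It measured 14.66, 15.44 and 14.15 CPM in normoxic and 23.19, 22.38 and 25.94 CPM in hypoxic HepG2 cells, a rise of 1.61-fold (log2 0.69 ± 0.09, edgeR adjusted p = 3.75e-05). In RCC4+VHL cells it measured 57.39, 61.64 and 63.04 CPM and then 66.89, 67.33 and 65.78 CPM. The groups there did not overlap but lay close, at 1.1-fold (0.14 ± 0.05, edgeR adjusted p = 0.012), and the call was lost without normoxic replicate 1 (0.10, edgeR adjusted p = 0.108) and in 1 fit of all 18 samples (0.14, edgeR adjusted p = 0.347; range over all alternatives 0.00619 to 0.347). In HKC-8 cells it measured 12.51, 12.04 and 16.79 CPM and then 11.96, 11.51 and 11.03 CPM, a log2 difference of -0.26 ± 0.14 (edgeR adjusted p = 0.233). In 1 fit of all 18 samples that value was -0.26 and passed (edgeR adjusted p = 0.0485; range over all alternatives 0.0485 to 0.596), so a fall there depends on the fit.

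IGFBP2 and IGFBP5, a second neighbouring pair that lies tail to tail with 7668 bases between (GRCh37 chr2:217497551-217529159 and chr2:217536828-217560272), were both low. IGFBP2, a binding protein abundant in fetal life, was counted 82, 79 and 88 times in normoxic and 167, 164 and 137 times in hypoxic HepG2 cells. In CPM these were 1.858, 1.768 and 2.1 and then 3.976, 3.561 and 3.543, a rise of 1.93-fold (log2 0.95 ± 0.16, edgeR adjusted p = 0.000419). It had 0 to 2 counts in HKC-8 libraries and 0 in all 6 RCC4+VHL libraries, which put the lowest normoxic HepG2 library at least 24.8-fold above the floor of normoxic RCC4+VHL libraries. IGFBP5, best known from bone, muscle and kidney, was near the floor everywhere. Its counts in HKC-8 cells were 20, 9 and 8 in normoxia and 19, 6 and 19 in hypoxia, with no detectable difference (log2 0.26 ± 0.61, edgeR adjusted p = 0.799). In RCC4+VHL cells its counts were 1 in each normoxic library and 9, 2 and 5 in hypoxic ones, and in HepG2 cells 0 and then 2, 0 and 2, too few to test.

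Per kilobase of merged exons, the summed level of the 6 binding proteins was 22.5 ± 1.1 (SD, n = 3) CPM per kb in normoxic and 40.5 ± 3.36 in hypoxic HKC-8 cells, a ratio of 1.8. The sum in RCC4+VHL cells was 290.7 ± 7.56 and 653.6 ± 29.2, a ratio of 2.25. In HepG2 cells it was 142.2 ± 12.1 and 668.7 ± 33.2, a ratio of 4.7. The groups did not overlap in any line, and by this length hypoxic RCC4+VHL and HepG2 cells reached sums within their spread of each other from different genes. IGFBP3 was 84.3% ± 0.985 of the sum in normoxic and 92.3% ± 0.267 in hypoxic RCC4+VHL cells. In HepG2 cells the leading gene changed, from IGFBP4 at 53.1% ± 2.07 with IGFBP1 at 38.7% ± 2.94 to IGFBP1 at 73% ± 2.41 with IGFBP4 at 23.8% ± 2.28. In HKC-8 cells it also changed, from IGFBP6 at 45.3% ± 6.27 to IGFBP3 at 55.2% ± 5.35. These shares depend on the length given to IGFBP3, which is 4569 bases for merged exons and 2631 for its longest transcript: with the latter its share in normoxic HKC-8 cells was 32.7% rather than 23.5%, ahead of IGFBP6 in replicate 2 (39.6% against 37%), and the sums in RCC4+VHL cells were 477.6 and 1105.3, more than 1.5 times higher, so that the hypoxic sum then lay above the 685.9 of HepG2 cells.

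**Figure D3:**
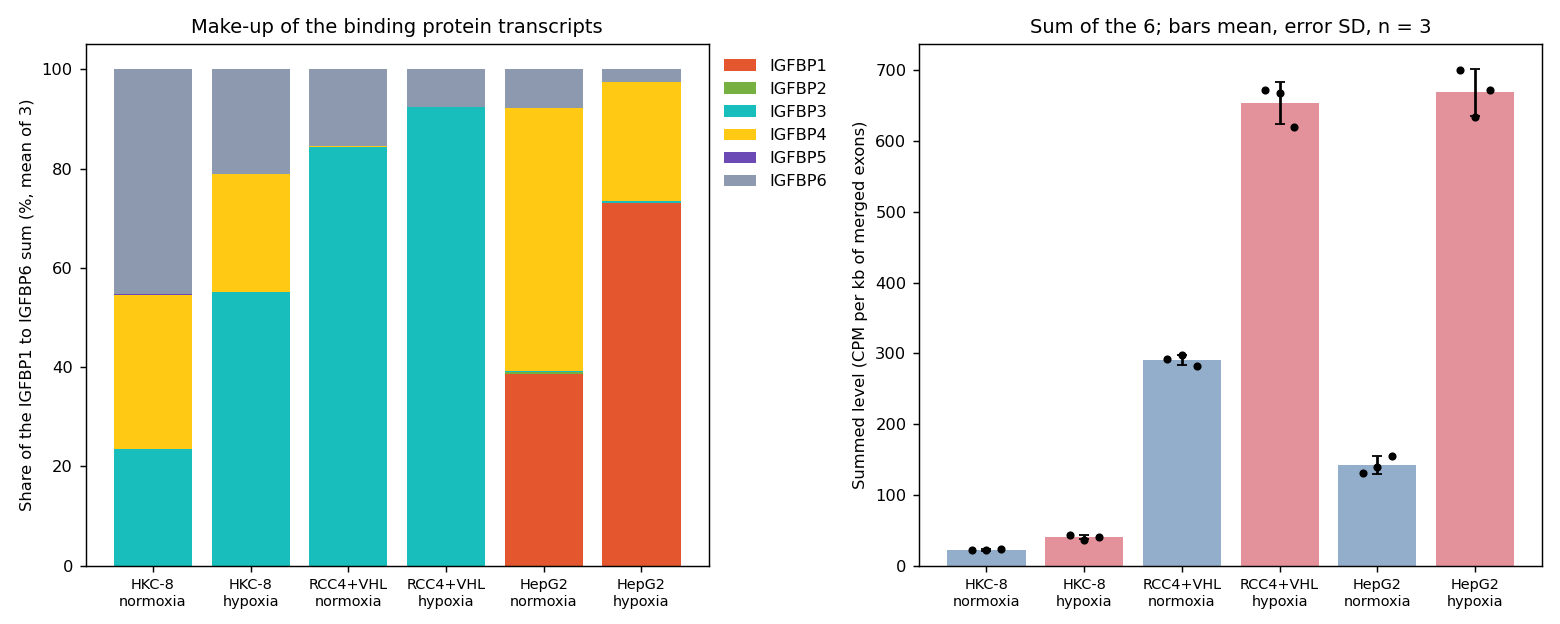
Left, mean share of each binding protein in the summed level of IGFBP1 to IGFBP6 per kilobase of merged exons (%, n = 3). Right, that sum in CPM per kb, with bars for means, error bars for the SD and points for the 3 libraries. The sum in hypoxia was 653.6 in RCC4+VHL and 668.7 in HepG2 cells, made mostly of IGFBP3 in the first and of IGFBP1 and IGFBP4 in the second.

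IGF2, the fetal growth factor, was transcribed at a high level in HepG2 cells only. It measured 622.9, 514.1 and 536.9 CPM in normoxia and 2307.8, 2110.4 and 2314.9 CPM in hypoxia. The groups were far apart, with a 4.02-fold rise (log2 2.01 ± 0.08, edgeR adjusted p = 3.02e-10). In HKC-8 libraries it had 3 to 10 counts and in RCC4+VHL libraries 0 to 6, too few to test within either line. IGF2 (GRCh37 chr11:2150342-2179621, minus strand) overlaps IGF2-AS on the other strand, and the strand setting of the counting is not given in the sources used here. If strand was ignored, reads shared by the pair were lost, and the IGF2 counts could be too low. How many reads this concerned was not tested. H19, the imprinted noncoding neighbour of IGF2, was low in HepG2 cells, with 7, 4 and 11 counts in normoxia and 52, 40 and 33 in hypoxia. That is a rise from 0.17 to 0.987 CPM (log2 2.53 ± 0.39, edgeR adjusted p = 0.000219). H19 passed the count filter through its hypoxic libraries, so this value rests on few normoxic counts.

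IGF1R, the receptor, was present in every line and rose modestly in HKC-8 and HepG2 cells. In HKC-8 cells it measured 110.8, 137.8 and 123.9 CPM in normoxia and 164.5, 177.5 and 173.8 CPM in hypoxia, 1.39-fold (log2 0.47 ± 0.09, edgeR adjusted p = 0.00939). In HepG2 cells it measured 92.28, 89.05 and 98.53 CPM and then 151.5, 156.4 and 161.3 CPM, 1.68-fold (0.75 ± 0.06, edgeR adjusted p = 4.79e-07). Neither pair of groups overlapped. The groups did overlap in RCC4+VHL cells, at 62.09, 59.04 and 62.34 CPM and 72.29, 58.1 and 61.99 CPM, with a log2 difference of 0.07 ± 0.06 (edgeR adjusted p = 0.309). INSR, the insulin receptor, rose in HKC-8 (0.85 ± 0.23, edgeR adjusted p = 0.0319) and HepG2 cells (0.38 ± 0.07, edgeR adjusted p = 0.00105) and was at -0.06 ± 0.07 in RCC4+VHL cells (edgeR adjusted p = 0.474). Its call in HKC-8 cells was lost without normoxic replicate 1 (0.73) or 2 (0.71) or hypoxic replicate 1 (0.82) or 3 (0.79), with edgeR adjusted p-values of 0.125, 0.0947, 0.108 and 0.0912 (range over all alternatives 0.000378 to 0.125).

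The adaptors behaved differently from each other. IRS2, an insulin receptor substrate prominent in liver tissue, measured 8.37, 9.869 and 8.436 CPM in normoxic and 38.79, 28.35 and 34.61 CPM in hypoxic HKC-8 cells. In RCC4+VHL cells it measured 26.39, 28.94 and 28.24 CPM and then 51.18, 44.68 and 46.65 CPM. Neither pair of groups overlapped, and the rises were 3.82-fold (log2 1.94 ± 0.14, edgeR adjusted p = 4.49e-05) and 1.71-fold (0.78 ± 0.06, edgeR adjusted p = 1.01e-10). In HepG2 cells, although of hepatic origin, it was near the floor, with 13, 4 and 4 counts in normoxia and 1, 2 and 6 in hypoxia, and was not tested in that line.

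IRS1, the closely related adaptor, passed the test in no line. It measured 48.54, 53.31 and 48.18 CPM in normoxic and 52.54, 47.11 and 50.09 CPM in hypoxic RCC4+VHL cells (log2 0.00 ± 0.05, edgeR adjusted p = 0.977). In HepG2 cells it measured 41.79, 39.61 and 43.89 CPM and then 40.43, 41.75 and 44.61 CPM (0.02 ± 0.07, edgeR adjusted p = 0.871). The groups overlapped in both. In HKC-8 cells it measured 23.35, 25.01 and 15.6 CPM and then 24.18, 31.47 and 23.72 CPM, with overlapping groups and a log2 difference of 0.32 ± 0.18 (edgeR adjusted p = 0.249). There same-numbered samples deviated together for replicates 2 and 3 (r of 0.453 and 0.447), and less clearly for replicate 1 (0.109). With the replicate number as a block the value was 0.33 and passed (edgeR adjusted p = 0.0202; range over all alternatives 0.0202 to 0.527). Per kilobase, IRS2 was 34.4% ± 4.91 of the IRS1 and IRS2 sum in normoxic and 61% ± 7.43 in hypoxic HKC-8 cells, 40.6% ± 1.06 and 53.9% ± 0.56 in RCC4+VHL cells, and 0.467% and 0.208% in HepG2 cells.

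Whether HepG2 cells responded differently from HKC-8 cells was tested directly, as the interaction of line and oxygen in 1 fit of 12 samples. By the titles, hypoxia was 0.1% oxygen for HKC-8 and 0.5% for HepG2 cells, and if so, line and oxygen level cannot be told apart here. Of all genes tested 9.30% passed. Among the genes tested within both lines, IGFBP3 (log2 difference, HepG2 minus HKC-8, 1.71 ± 0.29, edgeR adjusted p = 0.00174), IGFBP6 (0.95 ± 0.17, edgeR adjusted p = 0.00258) and IGFBP4 (0.63 ± 0.14, edgeR adjusted p = 0.00792) responded more in HepG2 cells, and each has at least 10 counts in every one of the 12 libraries. IGF2 (2.33 ± 0.47, edgeR adjusted p = 0.00554) and IRS2 (-3.08 ± 0.68, edgeR adjusted p = 0.00986) also passed, but IGF2 had 3 to 10 counts per library in HKC-8 and IRS2 1 to 13 in HepG2 cells, and each entered the fit through the other line alone. No response could be tested in the line near the floor, so no difference in response is read from these 2 values. Without normoxic HepG2 replicate 1, the library with 13 counts of IRS2, the IRS2 value was -2.30 and no longer passed (edgeR adjusted p = 0.101; range over all alternatives 1.64e-05 to 0.101). IGF1R differed by 0.28 ± 0.11 (edgeR adjusted p = 0.147) and IRS1 by -0.30 ± 0.21 (edgeR adjusted p = 0.426). With the replicate number as a block, IGF1R gave 0.27 and passed (edgeR adjusted p = 0.0332; range over all alternatives 0.0332 to 0.326), although the numbers were not shown to pair HepG2 samples. IGFBP1, IGFBP2 and IGFBP5 did not pass, and for each 1 or both lines had almost no counts.

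Normoxic levels set the lines apart for most of these genes, as they did for most genes: 80.8% of all genes tested differed between RCC4+VHL and HKC-8 cells, 83.0% between HepG2 and HKC-8 cells and 83.3% between HepG2 and RCC4+VHL cells. Of the 9 members tested 6, 8 and 8 differed in the same 3 contrasts. IGFBP1, IGFBP2 and IGF2 passed the count filter through HepG2 cells alone, and IRS2 through the kidney lines alone. These numbers therefore say nothing about the members as a group. Line and sequencing depth cannot be told apart here for HKC-8 cells. IGFBP3 was 47.3-fold higher in RCC4+VHL than in HKC-8 cells (log2 5.56 ± 0.15, edgeR adjusted p = 7.18e-13) and lower again in HepG2 than in HKC-8 cells (-4.67 ± 0.19, edgeR adjusted p = 2.68e-11). IGFBP4 had the reverse order, 10.9-fold higher in HepG2 than in HKC-8 cells (3.45 ± 0.08, edgeR adjusted p = 5.71e-14) and lower again in RCC4+VHL cells (-3.51 ± 0.10 against HKC-8, edgeR adjusted p = 9.52e-13).

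IGFBP6 was highest in RCC4+VHL cells, 4.43-fold above HKC-8 cells (2.15 ± 0.12, edgeR adjusted p = 6.78e-10), and HepG2 and HKC-8 cells did not differ beyond their spread (0.12 ± 0.12, edgeR adjusted p = 0.36). For IGF1R the order was HKC-8, HepG2 and RCC4+VHL, with each neighbour differing (-0.39 ± 0.08 for HepG2 against HKC-8, edgeR adjusted p = 0.000415, and 0.62 ± 0.08 for HepG2 against RCC4+VHL, edgeR adjusted p = 6.73e-06). IRS1 was lowest in HKC-8 cells (1.24 ± 0.14 for RCC4+VHL and 0.99 ± 0.14 for HepG2 against them, edgeR adjusted p = 1.15e-06 and 1.12e-05), and HepG2 and RCC4+VHL cells did not differ beyond their spread (-0.25 ± 0.13, edgeR adjusted p = 0.0971). IRS2 was 3.16-fold higher in RCC4+VHL than in HKC-8 cells (1.66 ± 0.14, edgeR adjusted p = 7.74e-08). In normoxic HepG2 cells it was near the floor, with 13, 4 and 4 counts, and no fold is given for that line.

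Across the 18 samples the genes most like IGFBP1, by Pearson's r of log2(CPM + 0.5) among 15307 genes, were FAM19A5 (r = 0.9997), IGFBP2 (0.9993) and SLC30A10 (0.9993). Each was near 0 in the 12 kidney libraries and higher in hypoxic than in normoxic HepG2 cells, so these values mostly restate presence in 1 line. IGFBP3 was most like S100A10 (0.9875), PELI3 (0.9823) and DYSF (0.9811), IRS1 most like LMF2 (0.972), ECE2 (0.9711) and AP5Z1 (0.9675), and IRS2 most like ITGB8 (0.9934), CLIC4 (0.991) and MRC2 (0.9897). The points share cell line and depth, and these are descriptions without a test.

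The rest of the pathway was read from a list of 57 genes, of which 55 were counted. This list too was chosen with earlier results of these data known. In HKC-8 cells 46 were tested, 12 rose and 3 fell, with a median log2 fold change of 0.07, where 11.2% of all genes rose and 9.12% fell. Of the list, 42 were tested in RCC4+VHL cells, 19 rose and 8 fell, with a median of 0.06, where 25.9% of all genes rose and 24.2% fell. In HepG2 cells 48 were tested, 16 rose and 4 fell, with a median of 0.14, where 19.9% of all genes rose and 19.2% fell. Of 16 genes of the PI 3-kinase and AKT cascade, 1 rose and 1 fell in HKC-8, 8 rose and 3 fell in RCC4+VHL and 5 rose and 1 fell in HepG2 cells. Among 8 other adaptors, of which 7 were tested in each line, 2 rose and 1 fell, 1 rose and 2 fell, and 3 rose and 0 fell, in the same order of lines. At these sizes the counts by role are descriptions, and several, such as those of the cascade in HKC-8 cells, lie at or below the shares of all genes given above.

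Among the carrier, proteases and protease inhibitors, which set how long a binding protein survives, STC2 rose in each line. Stanniocalcin-2 inhibits PAPPA, the protease that cleaves IGFBP4. PAPPA passed in no line and measured 8.701 CPM in normoxic HKC-8, 3.971 in RCC4+VHL and 0.3265 in HepG2 cells. Its counts in normoxic HepG2 libraries were only 19, 16 and 8. STC2 rose from 135.3 ± 16.7 to 596.8 ± 30.9 CPM (SD, n = 3) in HKC-8 (log2 2.14 ± 0.11, edgeR adjusted p = 6.07e-06), from 74.86 ± 0.784 to 278.7 ± 7.03 in RCC4+VHL (1.90 ± 0.04, edgeR adjusted p = 4.03e-22) and from 110.4 ± 4.57 to 277 ± 20.8 in HepG2 cells (1.33 ± 0.07, edgeR adjusted p = 4.57e-09). Its paralogue STC1 rose from 0.57 to 37.66 CPM in HKC-8 cells (6.03 ± 0.33, edgeR adjusted p = 8.71e-06) and was too low to test in the other lines. HTRA1, a secreted serine protease, rose by 1.28 ± 0.34 in HKC-8 (edgeR adjusted p = 0.0287) and 0.24 ± 0.04 in RCC4+VHL cells (edgeR adjusted p = 5.75e-05) and was at 0.01 ± 0.37 in HepG2 cells. The call in HKC-8 cells was lost without hypoxic replicate 1 (1.40) or 3 (0.94) or normoxic replicate 1 (1.44) or 2 (1.02), with edgeR adjusted p-values of 0.0623, 0.0969, 0.0692 and 0.0671 (range over all alternatives 0.000566 to 0.0969), and that in RCC4+VHL cells in 1 fit of all 18 samples (edgeR adjusted p = 0.405; range over all alternatives 1.2e-06 to 0.405). IGFBPL1, a related binding protein, fell by 1.10 ± 0.35 on the log2 scale in HepG2 cells from 0.629 CPM (edgeR adjusted p = 0.0236), and lost its call with DESeq2 (adjusted p = 0.0541) and without any of 4 libraries, hypoxic replicate 2 or 3 or normoxic replicate 1 or 3 (log2 between -0.97 and -1.04, edgeR adjusted p up to 0.0886, range over all alternatives 0.0239 to 0.0886). It passed the count filter through its normoxic libraries, with 30, 22 and 30 counts, against 16, 12 and 9 in hypoxia.

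TRIB3, a pseudokinase that binds AKT, rose 4-fold in HKC-8 (log2 2.00 ± 0.10, edgeR adjusted p = 7.03e-06) and 2.74-fold in RCC4+VHL cells (1.45 ± 0.04, edgeR adjusted p = 1.31e-18) and was at -0.15 ± 0.09 in HepG2 cells (edgeR adjusted p = 0.185). Its interaction of line and oxygen passed (HepG2 minus HKC-8, -2.15 ± 0.15, edgeR adjusted p = 2.79e-07). Among the other pathway genes named, STC2 (-0.82), PIK3R3 (-0.77) and SESN3 (-1.80) also passed (edgeR adjusted p = 0.000806, 0.00851 and 0.0103). The oxygen level in the titles differs between these lines, and its part was not tested. PIK3R3, a regulatory subunit of PI 3-kinase, fell in RCC4+VHL (-1.09 ± 0.06, edgeR adjusted p = 9.89e-13) and HepG2 cells (-1.09 ± 0.10, edgeR adjusted p = 2.66e-06). In HKC-8 cells it was at -0.32 ± 0.12 (edgeR adjusted p = 0.0991), and at -0.32 with the replicate block, where it passed (edgeR adjusted p = 0.024), as it did in 1 fit of all 18 samples (edgeR adjusted p = 0.02; range over all alternatives 0.02 to 0.26). SOCS1, a feedback inhibitor, fell from 0.635 to 0.191 CPM in RCC4+VHL cells (-1.70 ± 0.49, edgeR adjusted p = 0.0058), a call lost without normoxic replicate 3 (-1.33, edgeR adjusted p = 0.0514; range over all alternatives 0.00113 to 0.0514). Its counts there were 36, 13 and 40 in normoxia and 7, 9 and 12 in hypoxia, so the groups lay close. SOCS1 passed the count filter through its normoxic libraries, and this value rests on few hypoxic counts.

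FOXO3, a transcription factor that AKT keeps out of the nucleus, rose in each line, by 0.56 ± 0.08 in HKC-8 (edgeR adjusted p = 0.0019), 0.40 ± 0.04 in RCC4+VHL (edgeR adjusted p = 1.07e-07) and 0.65 ± 0.09 in HepG2 cells (edgeR adjusted p = 9.9e-05). FOXO3, INSR and SESN1 changed by less than the 2-fold of the naming rule and were named after their values were seen. PAPPA, which passed in no line, was also named after its values were seen. Of 6 FOXO target genes, 2 of 4 tested rose in HKC-8, 1 of 3 in RCC4+VHL and 2 of 5 in HepG2 cells. Of all genes 11.2%, 25.9% and 19.9% rose in the same order of lines, and at these sizes the counts are descriptions. SESN1, a stress-induced relative of SESN3, was the only 1 to fall (-0.33, edgeR adjusted p = 0.00285), in HepG2 cells, where 19.2% of all genes fell. CCNG2, an atypical cyclin, rose by 1.40 ± 0.28 in HKC-8 (edgeR adjusted p = 0.0106), 0.66 ± 0.05 in RCC4+VHL (edgeR adjusted p = 8.16e-11) and 1.31 ± 0.10 in HepG2 cells (edgeR adjusted p = 5.34e-07), and its call in HKC-8 cells was lost without normoxic replicate 1 (1.28, edgeR adjusted p = 0.0557; range over all alternatives 1.83e-05 to 0.0557). G6PC, the glucose-releasing enzyme of liver and kidney, rose from 0.51 to 1.2 CPM in HepG2 cells (1.23 ± 0.32, edgeR adjusted p = 0.00838) and was absent or nearly so from the kidney lines. SESN3, a stress-induced regulator of mTORC1, rose from 0.201 to 0.631 CPM in HKC-8 cells (1.64 ± 0.43, edgeR adjusted p = 0.0295), a call lost without hypoxic replicate 1 (1.35) or normoxic replicate 1 (1.82) or 2 (1.32), with edgeR adjusted p-values of 0.124, 0.077 and 0.0824 (range over all alternatives 0.00244 to 0.124). SESN3 counts there were 21, 8 and 23 in normoxia and 69, 58 and 36 in hypoxia. The gene passed the count filter through its hypoxic libraries, so this value rests on few normoxic counts. In HepG2 cells it was at -0.17 ± 0.14 (edgeR adjusted p = 0.347), and passed without normoxic replicate 2 (-0.32, edgeR adjusted p = 0.0368; range over all alternatives 0.0368 to 0.798).

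**Figure D4:**
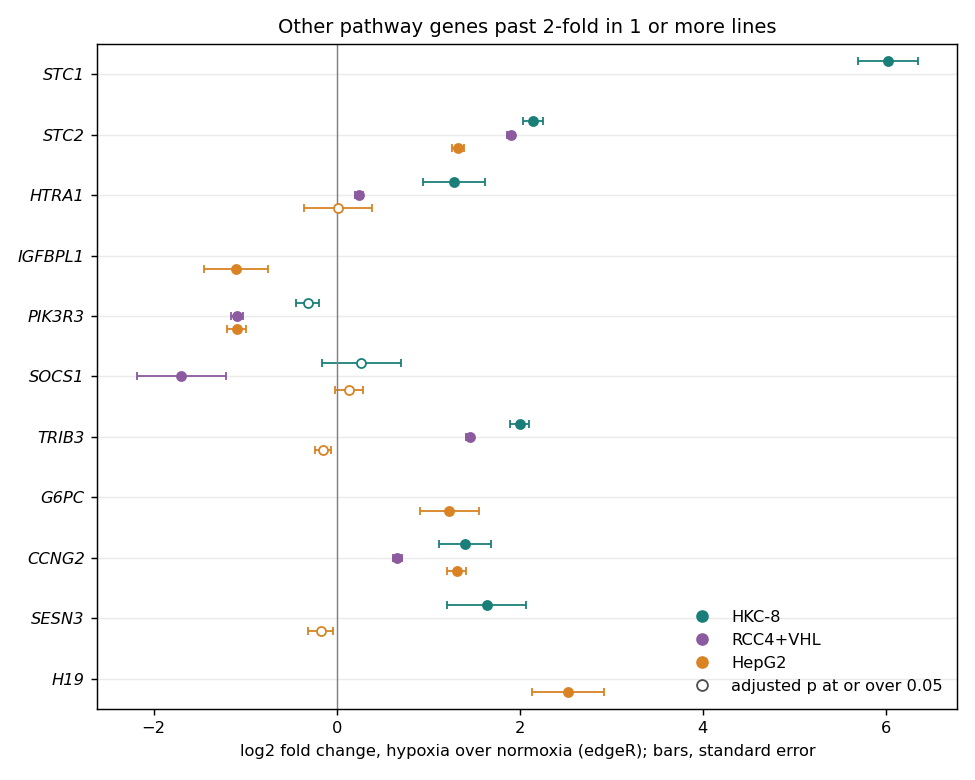
Log2 fold change of hypoxia over normoxia with its standard error (edgeR, 3 against 3 libraries) for the other pathway genes that changed by 2-fold or more in at least 1 line, with open circles for an adjusted p of 0.05 or more. STC2 and CCNG2 rose in every line, TRIB3 rose in both kidney lines and was at -0.15 in HepG2 cells, and STC1 had the largest value, 6.03 in HKC-8 cells.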

How the data were processed

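PolyA+ RNA-seq of 18 samples was used. Per the labels and the study's methods, the authors trimmed adapters (Trim Galore 0.3.3), aligned reads to GRCh37 (TopHat 2.0.8b, Bowtie 1.0.0), kept uniquely mapped fragments (SAMtools 0.1.19) and counted them per gene with HTSeq 0.5.4p3 in intersection-strict mode. They deposited raw counts, without normalization. Reads shared by overlapping or near-identical genes are lost by this counting.

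Counts were filtered by filterByExpr, scaled by TMM and tested with glmQLFit and glmQLFTest (edgeR 4.0.16, R 4.3.3), each line apart, hypoxia against normoxia. Normoxic levels were compared in 1 fit of 9 samples. P-values were Benjamini-Hochberg adjusted over all genes tested, with a threshold of 0.05. The SE is the log2 fold change divided by the square root of F. CPM were scaled over all 18 samples. Lengths come from GENCODE on GRCh37. Groups follow the labels. All 10 genes are named, and pathway genes past the threshold with a log2 change of at least 1. For likeness the 3 genes of highest r are given. The members and lists were chosen with earlier results of these data known. Alternatives were DESeq2 1.42.0, median-of-ratios factors, the replicate block, a joint fit of the 18 samples, no filter, a minimum of 10 counts per gene in all samples, each sample left out, and longest transcripts for length.

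Replicate numbers come from the labels. Deviations of same-numbered normoxic and hypoxic samples correlated at 0.109, 0.453 and 0.447 in HKC-8 cells, each over the 0.1 taken as paired. Normoxic replicate 1 correlated at 0.116 with hypoxic replicate 2, so its pairing is not shown. The same-numbered values were 0.165, 0.0617 and 0.184 in HepG2 and -0.0103, 0.0333 and 0.0147 in RCC4+VHL cells. Not every value passed 0.1 in these 2 lines, and pairing was not assumed there. Printed values are from the fit without the block, and the blocked value is added where it changes a call.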

Additional observations from a re-analysis of the deposited data

Results flagged for a closer look

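The test of the difference in hypoxic response (log2, HepG2 minus HKC-8, edgeR interaction) passed for 5 of the 10 members, where 9.30% of all genes tested passed. The values were 1.71 for IGFBP3, 0.63 for IGFBP4, 0.95 for IGFBP6, 2.33 for IGF2 and -3.08 for IRS2. IGF2 rested on 3 to 10 counts per library in HKC-8 cells and IRS2 on 1 to 13 counts per library in HepG2 cells, each too few to test a response in that line, and IRS2 no longer passed without normoxic HepG2 replicate 1 (edgeR adjusted p = 0.101, range over all alternatives 1.64e-05 to 0.101). Depth and hypoxia marker levels differ between these lines. So does the oxygen level in the titles of the hypoxic samples, 0.1% for HKC-8 and 0.5% for HepG2 cells. Their part in the differences was not tested.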

How the results depend on the processing

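Of 251 values of a member's hypoxic response under alternative settings, 232 kept their direction and their side of the threshold, as did 169 of 174 interaction values and 264 of 284 values of pathway genes. With 1 fit of all 18 samples, 1 member (IGFBP6) was repressed in HKC-8 cells. With at least 10 counts in every sample, fewer members were tested, 3 passed the interaction of line and oxygen, and 4 differed in normoxic level between HepG2 and HKC-8 cells and 4 between HepG2 and RCC4+VHL cells. The log2 fold change of IRS1 in RCC4+VHL cells turned to -0.0005 with DESeq2, -0.0006 with median-of-ratios factors and -0.0031 in 1 fit of all 18 samples. With 1 sample left out, some values that had not passed changed sign. Their ranges were -0.0237 to 0.80 for IGFBP5 in HKC-8, -0.0198 to 0.14 for IGF1R and -0.0356 to 0.0474 for IRS1 in RCC4+VHL, -0.0228 to 0.0475 for IRS1 and -0.36 to 0.25 for HTRA1 in HepG2 cells, and -1.82 to 0.58 for the interaction of IGFBP2. The cause was not tested. With the replicate block, 5 members were induced in HKC-8, 3 in RCC4+VHL and 7 in HepG2 cells and 6 passed the interaction, and over all genes 2836 rose and 2919 fell in HKC-8 cells against 1522 and 1235 without it. Beyond IRS1, PIK3R3 and the interaction of IGF1R, given above, the block changed no other call of a member, of a pathway gene named by the 2-fold rule, or of INSR, FOXO3 and SESN1. Of 40 per-kilobase levels, each of 1 member in 1 group, 20 moved by more than the replicate SD with longest transcripts. Over all genes, calls in HKC-8 cells fell to 687 rising and 326 falling without normoxic replicate 1, 750 and 342 without hypoxic replicate 1, 933 and 522 without normoxic replicate 2 and 1037 and 675 without hypoxic replicate 3. In 1 fit of all 18 samples they were 2503 and 2510 in HKC-8 and 1867 and 1419 in RCC4+VHL cells, the latter against 3318 and 3105. For the interaction, 755 genes were higher and 644 lower of 15046, against 1656 and 1363 with the replicate block, 1209 and 1010 of 15307 in 1 fit of all 18 samples, and 481 and 430 of 15525 without hypoxic HepG2 replicate 1. In HKC-8 cells 3 or 4 members were induced with 1 sample left out, and in RCC4+VHL cells 2 or 3. Low counts limit IGFBP1, IGFBP2 and IGF2 in the kidney lines, IRS2 in HepG2 cells and IGFBP5 everywhere.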
